A study of Mus musculus with 24 samples.

Results

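The myelin galactolipid and very long chain enzymes were followed here as 10 genes, Ugt8a, Fa2h, Gal3st1, Cers2, Elovl1, Galc, Sptlc1, Sptlc2, Degs1 and Sgms1. They were chosen by name, with earlier results of these data known, and every probe whose array annotation carries one of these symbols was taken. This gave 17 probes of 10 genes among 16593 named genes on the array. Of these, 15 probes were kept after a filter on dim signals, and every gene had at least 1 kept probe. Cers2 had 3 kept probes, Elovl1 had 4, and the other genes had 1 each. The 2 probes left out were both of Galc, ILMN_1244064 detected on 0 of 24 arrays and ILMN_1252690 detected on 1.

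Brain RNA of mice at postnatal day 21 was measured on 24 Illumina bead arrays, with 4 arrays in each of 6 groups. The groups are cerebellum, cortex and striatum of mice labelled Nestin Con, called control here, and of mice labelled Nestin THAP1 KO, called knockout here. The design text names 4 WT mice and 4 conditional THAP1 knockout mice, and every group carries Nestin in its label, a gene of neural progenitors from which Cre is commonly driven in neurons and the glia that descend from the same cells. The labels do not say which mouse each array came from. With 12 arrays for 4 mice of each genotype, regions share animals, yet the fit treats all arrays as independent, also where effects are compared between regions. The p-values describe the spread between these arrays.

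Galactosylceramide and its sulfated form, sulfatide, are the glycolipids that set myelin apart from other membranes, and oligodendrocytes are the cells that make them in the brain. Serine palmitoyltransferase, with Sptlc1 and Sptlc2 as subunits, starts the path to ceramide, and the desaturase Degs1 puts in the double bond that completes it. Elovl1 lengthens saturated fatty acids to very long chains, Cers2 joins these chains to the sphingoid base, and Fa2h adds a hydroxyl group to the fatty acid. Ugt8a then transfers galactose to the ceramide, Gal3st1 adds sulfate, Galc removes the galactose in the lysosome, and Sgms1 draws ceramide into sphingomyelin instead.

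The mean signal of an array ranged from 287 to 570, and 47.2 to 54.5% of 25697 probes were detected per array. Arrays of the same group correlated at 0.974 to 0.989 over kept probes, and arrays of different groups at 0.899 to 0.988. Markers of each region averaged highest on the arrays of that region, from 9.73 to 10.44 for cerebellum, 9.36 to 9.68 for cortex and 10.17 to 11.19 for striatum. The targeted gene Thap1 was above background with probe ILMN_2603593 on 8 control and 0 knockout arrays of 12 each, and with ILMN_2907066 on 10 and 1. A further Thap1 probe, ILMN_1258989, was above background on 10 and 12. Precision is limited by the 4 arrays per group. All levels below are normalized bead signals on a log2 scale, on which a difference of 1 is a doubling, and levels are compared only within a probe.

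Upstream sequences of 3 of the enzymes are shown because their genes had probes that fell in the knockout striatum. Each is the 250 bases before an annotated transcript start, 5′ to 3′ on the gene's strand, from RefSeq on GRCm38.p6. The Ugt8a window is chr3:125938653-125938902 on the minus strand, that of Cers2 is chr3:95314940-95315189 on the plus strand, and that of Elovl1 is chr4:118427843-118428092 on the plus strand. Capitals mark matches to TNNNNGGCA, which holds the GGCA core of the sequence bound by human THAP1, or to ACAAAG or ACAATG, cores of SOX factor sites, searched on both strands.
Ugt8a: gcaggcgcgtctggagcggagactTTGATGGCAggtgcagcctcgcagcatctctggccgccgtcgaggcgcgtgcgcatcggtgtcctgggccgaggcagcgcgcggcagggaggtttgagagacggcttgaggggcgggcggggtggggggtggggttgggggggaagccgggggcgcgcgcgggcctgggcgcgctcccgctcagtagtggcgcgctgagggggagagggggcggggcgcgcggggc
Cers2: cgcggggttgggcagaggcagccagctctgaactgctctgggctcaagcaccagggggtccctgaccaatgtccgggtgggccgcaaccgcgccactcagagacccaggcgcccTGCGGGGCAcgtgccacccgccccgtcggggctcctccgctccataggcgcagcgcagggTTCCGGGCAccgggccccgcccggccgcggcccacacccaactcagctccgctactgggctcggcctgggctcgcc
Elovl1: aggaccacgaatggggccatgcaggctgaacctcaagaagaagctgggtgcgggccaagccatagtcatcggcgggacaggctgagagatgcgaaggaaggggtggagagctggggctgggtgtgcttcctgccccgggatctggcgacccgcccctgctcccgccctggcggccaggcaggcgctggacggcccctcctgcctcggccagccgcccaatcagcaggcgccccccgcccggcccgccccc
In these windows TNNNNGGCA had 1 match in Ugt8a and 2 in Cers2. The same pattern occurred in 6 of 16 windows of the enzymes, from 5 of the 9 genes in the table, and in 38.1% of all 32851 windows of this length. ACAAAG was found in windows of 2 of the 9 genes, Sptlc1 and Sgms1, and in 16.5% of all windows. ACAATG was found in 2 overlapping windows of Gal3st1 and in 10.7% of all windows. These matches describe letters and do not show binding, and Fa2h was not in the table. The printed Ugt8a, Cers2 and Elovl1 windows were rich in G and C, at 76.8, 74.8 and 72% of bases. Cers2 and Elovl1 each had another window, not printed, at 54 and 58%, and neither held a match. The printed Cers2 and Elovl1 windows lie inside the gene spans given below, so they do not precede the first annotated start.

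In the knockout striatum, 7 of the 15 probes, from 4 genes, were lower than in control striatum, and none was higher. The genes were Ugt8a, Fa2h, Elovl1 and Cers2, which act in making the hydroxylated very long chain galactosylceramide of myelin. Sptlc1, Sptlc2 and Degs1, which act earlier in the same path, did not pass. By limma with Benjamini-Hochberg adjustment over 14994 probes and a threshold of 0.05, 0.494% of all probes passed in striatum. The median difference of the 15 probes was -0.69, against 0.01 for all kept probes, and 13 of 15 lay below 0. Elovl1 had 4 of the 15 probes and Cers2 had 3. Counts and medians over probes therefore weigh these genes more, also in cortex and cerebellum. At an unadjusted p under 0.05 there were 10 of the 15, from 5 genes, against 7.03% of all probes. Knockout and control arrays did not overlap for 6 of the 15, all lower in the knockout, against 3.61% of all probes. The count of 7 fell to 0 when arrays were scaled by their medians instead of quantile normalized, and to 1 when only striatum arrays were fitted. Leaving out 1 array gave 3 to 9 calls, with 3 without knockout array 8, 4 without knockout array 6 and 4 without control array 1.

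Ugt8a (chr3:125865272-125938682, GRCm38.p6), the ceramide galactosyltransferase, was measured in control striatum at 10.95, 10.85, 11.17 and 10.90 and in knockout striatum at 10.33, 10.22, 9.82 and 9.57. The groups did not overlap, and control arrays were the higher ones. The means were 10.97 ± 0.141 and 9.99 ± 0.355 (SD, n = 4 each), a fall to 50.5% of the control level. The log2 difference was -0.98 (SE 0.19, 95% confidence interval -1.38 to -0.59, limma adjusted p = 0.00831). Without knockout array 8 it was -0.85 with an adjusted p of 0.0747.

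Fa2h (chr8:111345138-111393821), which makes the 2-hydroxy fatty acids of myelin galactolipids, had control striatum levels of 11.10, 10.82, 11.10 and 11.04. Its knockout levels were 10.68, 10.19, 9.86 and 9.42, again all below the controls, with array 5 the highest and array 8 the lowest as for Ugt8a. The means were 11.01 ± 0.131 and 10.03 ± 0.531 (SD, n = 4 each), and the knockout stood at 50.7% of control. The log2 difference was -0.98 (SE 0.18, 95% confidence interval -1.35 to -0.61, limma adjusted p = 0.00437), and it stayed past the threshold whichever striatum array was left out.

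Gal3st1 (chr11:3983636-3999328), the sulfotransferase that turns galactosylceramide into sulfatide, did not pass the test in striatum. Control levels were 9.45, 9.04, 8.77 and 9.10 and knockout levels were 9.12, 8.45, 8.27 and 7.80. The groups overlapped because knockout array 5 exceeded 3 of the 4 control arrays. The difference was -0.68 (SE 0.19, 95% confidence interval -1.08 to -0.28, limma adjusted p = 0.153). Without that array the difference was -0.92 with an adjusted p of 0.00486, the only 1 of 8 fits with a striatum array left out that passed. Over these fits it ranged from -0.92 to -0.48, with adjusted p-values up to 0.564. Gal3st1 passed in 0 of 11 processing alternatives in striatum.

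Elovl1 (chr4:118426874-118432953), the elongase for saturated very long chains, was lower in knockout striatum with all 4 of its probes. Probe ILMN_2723491 read 8.24, 7.80, 7.46 and 7.65 in controls and 7.26, 7.01, 6.78 and 6.70 in knockouts. The groups did not overlap, and their means were 7.79 ± 0.329 and 6.94 ± 0.254 (SD, n = 4 each), with the knockout at 55.4% of control. The difference was -0.85 (SE 0.16, limma adjusted p = 0.00437). The other 3 probes differed by -0.87 (ILMN_1224780, limma adjusted p = 0.0153), -0.87 (ILMN_2771824, 0.0448) and -0.71 (ILMN_3143506, 0.0471). Only ILMN_3143506 had overlapping groups. ILMN_2771824 and ILMN_3143506 each stayed past the threshold in 2 of 8 fits with 1 striatum array left out, and ILMN_2723491 in 8 of 8.

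Cers2 (chr3:95314771-95323599), the ceramide synthase for very long acyl chains, had 1 of 3 probes past the threshold. Probe ILMN_2893992 read 10.85, 10.52, 10.84 and 10.88 in control striatum and 10.51, 9.87, 9.94 and 10.00 in knockout striatum. The lowest control and the highest knockout almost met. The difference was -0.69 (SE 0.13, 95% confidence interval -0.96 to -0.42, limma adjusted p = 0.00664), a knockout level of 61.9% of control. The other 2 probes had differences of the same sign that did not pass, -0.59 for ILMN_2893993 (limma adjusted p = 0.0958) and -0.79 for ILMN_2893999 (0.196), and their groups overlapped.

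The 5 remaining genes did not pass in striatum. Degs1 (chr1:182275964-182282854), the dihydroceramide desaturase, differed by -0.24 (95% confidence interval -0.49 to 0.02, limma adjusted p = 0.765). Sptlc1 (chr13:53332748-53377417) differed by -0.18 (-0.40 to 0.04, adjusted p = 0.809), and Sgms1 (chr19:32122727-32389885) by -0.14 (-0.40 to 0.13, adjusted p = 0.929). The intervals of these 3 genes reach further below 0 than above it. Galc (chr12:98202287-98259459) differed by 0.22 (-0.21 to 0.65) and Sptlc2 (chr12:87305058-87388355) by 0.12 (-0.22 to 0.47). Sptlc2 was dim, detected on 7 of 24 arrays, so its values lie near the lowest detected signals of 4.74 to 5.12.

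**Figure D1:**
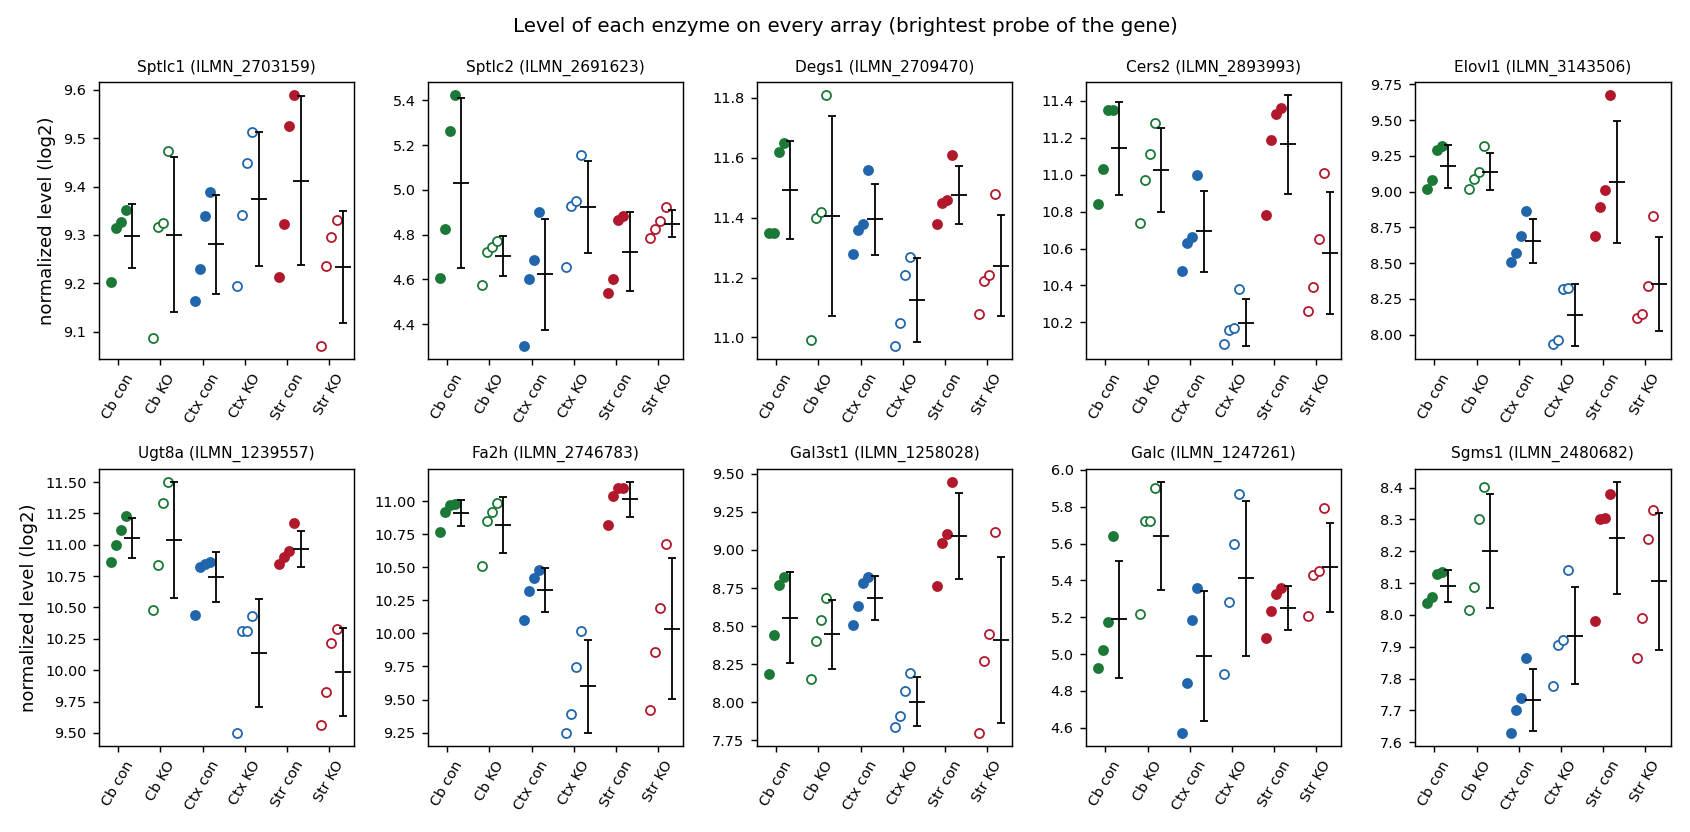
Normalized level (log2) of each of the 10 enzymes on every array, with the brightest kept probe of each gene. Cb, Ctx and Str are cerebellum, cortex and striatum, con is control and KO is knockout; points within a group are sorted by value, black marks give the mean ± SD (n = 4), and each panel has its own vertical range that does not start at 0. Ugt8a and Fa2h lie lower in all 4 knockout striatum arrays than in any control striatum array, while the cerebellum groups overlap.

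In the knockout cortex none of the 15 probes passed the limma test with Benjamini-Hochberg adjustment, while 11 had an unadjusted p under 0.05. Across all probes 0.427% passed in cortex and 10.2% had an unadjusted p under 0.05. For these 11 probes, from Ugt8a, Fa2h, Gal3st1, Cers2, Elovl1 and Degs1, the groups did not overlap and the knockout was lower, and 7.81% of all probes had groups that did not overlap in cortex. The median difference of the 15 was -0.49, against 0.01 for all kept probes. Fits with array weights called 5 of the 15 and fits on cortex arrays alone called 3. Array weights also raised the count of calls over all probes in cortex, and the other processing alternatives called none of the 15.

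Fa2h in cortex read 10.48, 10.32, 10.42 and 10.10 in controls and 10.02, 9.39, 9.75 and 9.24 in knockouts. The difference was -0.73 (SE 0.18, 95% confidence interval -1.09 to -0.36, limma adjusted p = 0.0614). Without knockout array 13, the highest of its group, the difference was -0.87 with an adjusted p of 0.0321. This was the only 1 of 8 fits with a cortex array left out that passed. Over these fits the difference ranged from -0.87 to -0.61, with adjusted p-values up to 0.227. Gal3st1 read 8.78, 8.82, 8.63 and 8.51 in controls and 8.19, 7.91, 8.08 and 7.84 in knockouts. Its difference was -0.68 (SE 0.19, limma adjusted p = 0.112), the same size as in striatum, and here with no overlap of the groups.

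Ugt8a in cortex read 10.86, 10.85, 10.82 and 10.44 in controls and 10.43, 10.31, 10.31 and 9.50 in knockouts. One array of each group was far below its fellows, control array 12 and knockout array 16. The difference was -0.61 (SE 0.19, 95% confidence interval -1.0 to -0.21, limma adjusted p = 0.186). Elovl1 probes differed by -0.56 to -0.43 and Cers2 probes by -0.73 to -0.39, with limma adjusted p-values from 0.102 to 0.396 over these 7 probes. Degs1 differed by -0.27 (-0.52 to -0.01, limma adjusted p = 0.459).

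The remaining 4 genes had differences above 0 in cortex and overlapping groups. Galc, the lysosomal galactosylceramidase, read 5.18, 5.36, 4.84 and 4.57 in controls and 5.28, 4.89, 5.87 and 5.6 in knockouts. Its difference of 0.42 (95% confidence interval -0.01 to 0.85, limma adjusted p = 0.498) came with 2 knockout arrays, 15 and 16, above all 4 controls. The probe was detected on 21 of the 24 arrays, but in cortex only on 2 of 4 control and 3 of 4 knockout arrays. Sptlc2 differed by 0.30 (adjusted p = 0.575), Sgms1 by 0.20 (adjusted p = 0.630) and Sptlc1 by 0.09 (adjusted p = 0.840).

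In the knockout cerebellum no probe of the 10 genes passed the limma test with Benjamini-Hochberg adjustment, and 1 had an unadjusted p under 0.05. Across all probes 0.200% passed, 5.07% had an unadjusted p under 0.05, and 2.61% had groups that did not overlap, against 0 of the 15. The median difference was -0.07. Ugt8a read 11.00, 10.86, 11.23 and 11.12 in controls and 11.50, 11.33, 10.84 and 10.48 in knockouts. The knockout arrays spread around the controls on both sides, and the difference was -0.01 with a 95% confidence interval of -0.41 to 0.39.

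Fa2h in cerebellum read 10.97, 10.77, 10.98 and 10.92 in controls and 10.99, 10.85, 10.92 and 10.51 in knockouts, a difference of -0.09 (95% confidence interval -0.46 to 0.27). For both genes the lower limit of this interval lies above the striatal estimate. Gal3st1 differed by -0.11 (-0.50 to 0.29), the 4 Elovl1 probes by -0.12 to -0.01, and the 3 Cers2 probes by -0.27 to 0.08. Galc was the gene with the unadjusted p of 0.0385, with control levels of 4.92, 5.02, 5.17 and 5.64 and knockout levels of 5.22, 5.72, 5.90 and 5.72. Its difference was 0.45 (limma adjusted p = 0.926). Sptlc2 was detected on 2 control arrays and 0 knockout arrays of cerebellum. Its difference was -0.33 (95% confidence interval -0.67 to 0.02, limma adjusted p = 1), with both groups near the lowest detected signals.

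**Figure D2:**
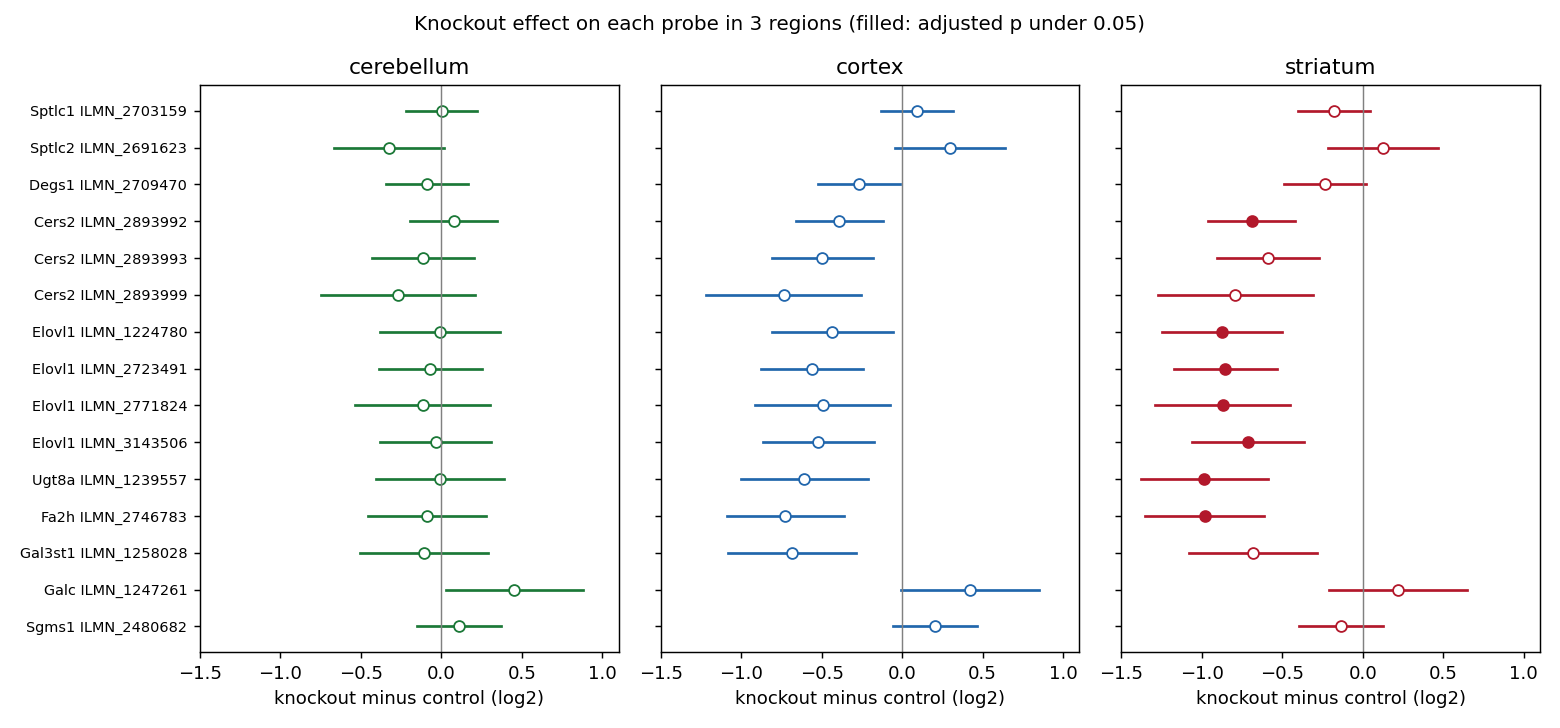
Knockout minus control on the log2 scale for the 15 kept probes in 3 regions, with points at the estimate and lines for the 95% confidence interval. Filled points have an adjusted p under 0.05; 7 are filled in striatum and 0 in cortex and cerebellum.

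The knockout effects were then compared between regions, as a difference that is past a threshold in one region need not differ from that in another. For the effect in striatum minus that in cerebellum, 14 of 15 probes lay below 0, a more negative or less positive effect in striatum. The median was -0.57, and 9 had an unadjusted p under 0.05, against 3.58% of all probes. None passed limma with Benjamini-Hochberg adjustment, where the smallest adjusted p of the 15 was 0.668 and 0% of all probes passed. Ugt8a differed most, at -0.97, and Fa2h by -0.89, each with an adjusted p of 0.727. Without knockout striatum array 5, Fa2h reached -1.10 (limma adjusted p = 0.0475) and Cers2 probe ILMN_2893992 -0.91 (adjusted p = 0.033). This was 1 of 16 fits with an array left out, and neither passed in any other, where Fa2h came down to -0.68 without knockout striatum array 8.

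For cortex against cerebellum, 6 of 15 probes had an unadjusted p under 0.05, against 3.96% of all probes. None of the 15 passed after adjustment, and 0.00667% of all probes did. The median difference in effect was -0.42. Between cortex and striatum none of the 15 had an unadjusted p under 0.05, against 4.40% of all probes, and 0% of all probes passed. The median of the effect in cortex minus that in striatum was 0.25. For 14 of 15 probes the estimate was less negative or more positive in cortex. The region contrasts share control and knockout arrays with one another.

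Among the controls, the cortex had the lowest mean for 14 of 15 probes, and Gal3st1 was lowest in cerebellum. Of all 14994 kept probes, 7819 had a lower estimate in cortex than in cerebellum, and 7417 a lower one than in striatum. The share of all probes lowest in cortex against both was not counted. Several of the 15 probes share a gene, and some gaps are small, as for Sptlc1 at 0.02 between cerebellum and cortex. Cerebellum was higher than cortex for 6 probes of 5 genes by limma with Benjamini-Hochberg adjustment, and lower for none. Of all probes, 43.2% passed in this comparison, 22.7% higher and 20.5% lower in cerebellum. Fa2h was at 10.91 ± 0.0948 in cerebellum and 10.33 ± 0.168 in cortex (SD, n = 4 each), a difference of 0.58 (limma adjusted p = 0.00929). Elovl1 probe ILMN_3143506 differed by 0.52, Cers2 probes ILMN_2893992 and ILMN_2893993 by 0.38 and 0.45, Sgms1 by 0.36 and Sptlc2 by 0.41, with limma adjusted p-values from 0.0134 to 0.0487. The Sptlc2 value is uncertain, since this probe was detected on 2 of 4 cerebellum and 1 of 4 cortex controls. The other 3 Elovl1 probes and Cers2 probe ILMN_2893999 had differences of the same sign that did not pass. Median scaling left 3 of the 6 calls, those of Fa2h, Elovl1 and Sgms1, and leaving out control cortex array 12 also left 3.

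Cortex was lower than striatum for 4 probes of 3 genes, where 27.1% of all probes passed, 12.6% higher and 14.5% lower in cortex. Cers2 probe ILMN_2893992 differed by -0.63 (limma adjusted p = 0.000532) and probe ILMN_2893993 by -0.47 (0.0226). Fa2h differed by -0.69 (0.00453) and Sgms1 by -0.51 (0.00314). Sgms1, whose sphingomyelin is found in most cell membranes, was thus lowest in cortex in both tests, as Fa2h and these 2 Cers2 probes were. Median scaling left 2 of the 4 calls, with Fa2h at an adjusted p of 0.0508 and Cers2 probe ILMN_2893993 at 0.219.

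Between cerebellum and striatum, Gal3st1 was the only one of the 10 genes to pass, at 8.55 ± 0.297 and 9.09 ± 0.281 (SD, n = 4 each). The difference was -0.54 (limma adjusted p = 0.0282), the call was lost under median scaling and in a fit on these 2 regions alone, and so it was without control cerebellum array 18 or 19 or control striatum array 1 or 4. Without control cerebellum array 20 there were 2 calls among the 15 probes. Of all probes 38.6% passed, 19.7% higher and 18.9% lower in cerebellum. Ugt8a did not pass in any pair of regions, with control means of 11.05, 10.74 and 10.97 in cerebellum, cortex and striatum. Sptlc1, Degs1 and Galc did not pass either, with ranges over the 3 control means of 0.13, 0.10 and 0.26.

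**Figure D3:**
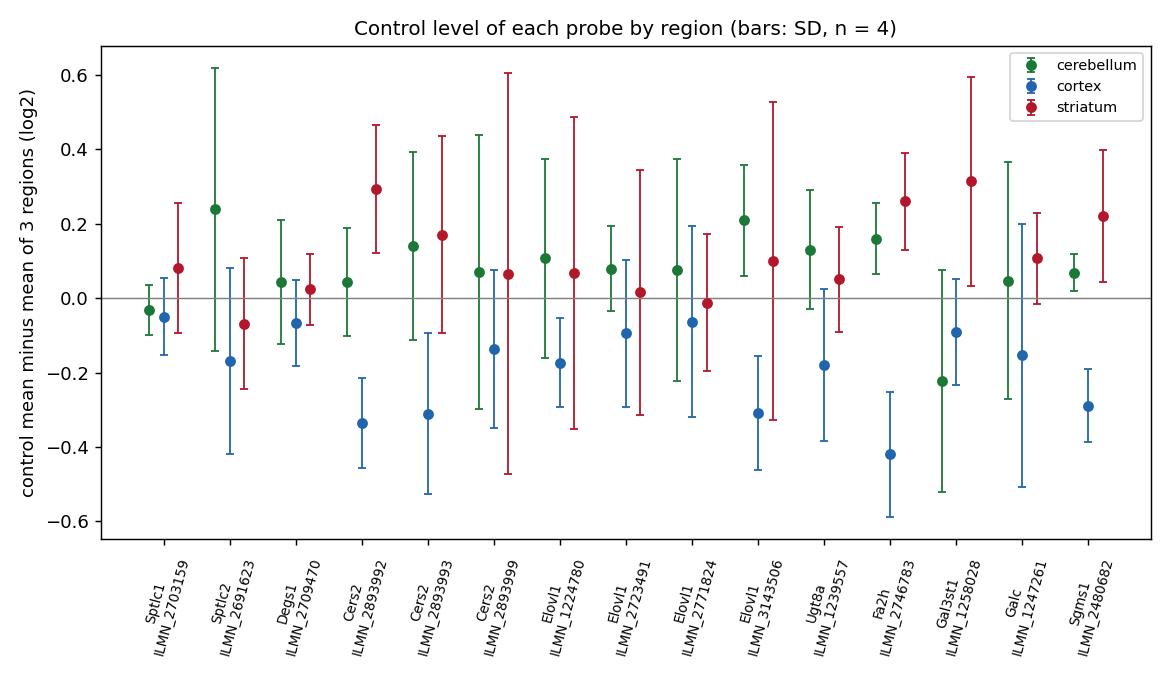
Control level of each probe in cerebellum, cortex and striatum, as the group mean minus the mean of the 3 control means (log2), with bars for the SD (n = 4). Cortex is lowest for 14 of 15 probes, and Gal3st1 is lowest in cerebellum.

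Oligodendrocyte markers were lower on average in knockout striatum and cortex, as were the estimates of Ugt8a, Fa2h, Gal3st1, Elovl1 and Cers2. This did not hold for all the enzymes, as Galc and Sptlc2 had estimates above 0 in both regions. A list of 20 genes of mature oligodendrocytes, none of them among the 10 enzymes, had 26 kept probes of 17 genes. In striatum 14 of the 26 were lower in the knockout by limma with Benjamini-Hochberg adjustment, in cortex 13 and in cerebellum 0. The median differences were -0.75, -0.73 and -0.15. In striatum the 4 genes with the smallest p were Mog, Mobp, Cnp and Mbp, which encode myelin proteins. Mog fell by 1.22 (probe ILMN_2615034, limma adjusted p = 0.000168) and Mobp by 1.18 (probe ILMN_3024681, limma adjusted p = 0.000168).

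The mean of the 17 markers ranged from 9.97 to 10.34 on control striatum arrays and from 9.18 to 9.93 on knockout striatum arrays. In cortex it ranged from 9.82 to 10.06 in controls and from 9.07 to 9.53 in knockouts, and the groups did not overlap in either region. In cerebellum the ranges met, at 10.00 to 10.20 and 9.85 to 10.15. Knockout array 5 was the highest of the knockout striatum arrays for the markers, as it was for Ugt8a, Fa2h and Gal3st1. This was not particular to that group, as the array with the lowest number had the highest marker mean in each of the 6 groups. These were arrays 17 and 21 in cerebellum, 9 and 13 in cortex, and 1 and 5 in striatum. The reason for this order was not tested. In whole tissue, fewer oligodendrocytes and less RNA per oligodendrocyte cannot be told apart, and the part of the markers in the enzyme differences was not tested.

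The change of each enzyme was also set beside the change of the marker mean on the same arrays, which was -0.66 in striatum and -0.60 in cortex. In striatum Ugt8a and Fa2h changed by -0.98 each, Cers2 probe ILMN_2893992 by -0.69 and Gal3st1 by -0.68. The Elovl1 probes changed by -0.87 to -0.71 and the other Cers2 probes by -0.59 and -0.79. Single marker probes differed by -1.25 to 0.09 in striatum, so some fell more than any of the enzymes and some hardly moved. The difference between an enzyme and the marker mean had, over the 4 arrays, an SD of 0.179 in control and 0.179 in knockout striatum for Ugt8a, and of 0.111 and 0.242 for Fa2h. For Gal3st1 these SDs were 0.221 and 0.240, larger than the gap between its change and that of the markers. In cortex the change of Ugt8a was -0.61, close to that of the markers. Sptlc1 changed by -0.18 in striatum and 0.09 in cortex, less than the markers in both. None of these gaps was tested.

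**Figure D4:**
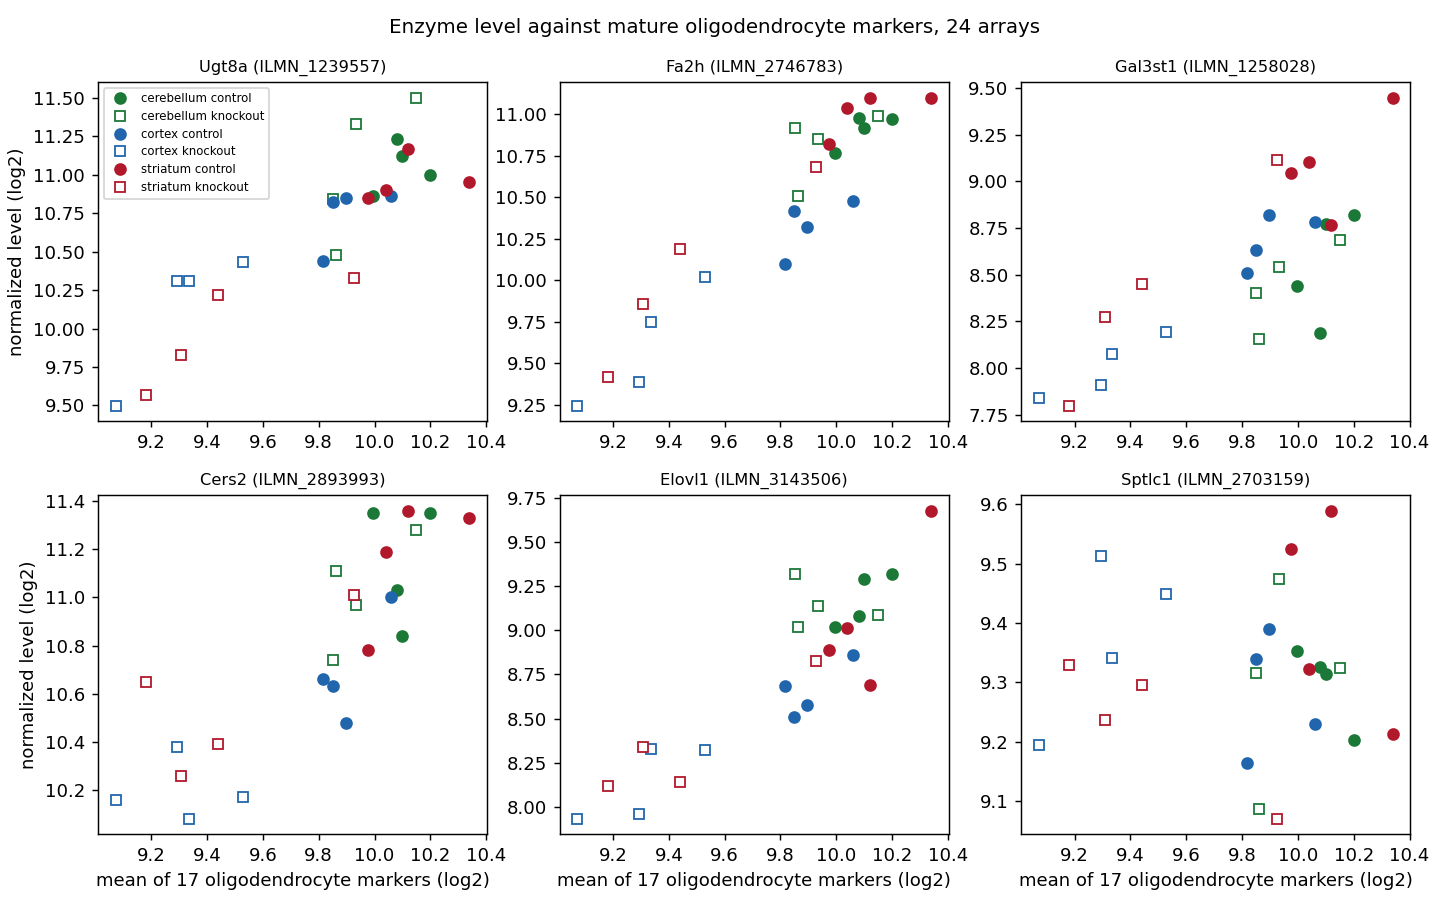
Level of 6 enzymes (brightest kept probe, log2) against the mean of 17 mature oligodendrocyte markers on the same array (log2), for 24 arrays; filled circles are controls and open squares knockouts. Fa2h, Ugt8a and Gal3st1 are low on the knockout cortex and striatum arrays with low marker means, and Sptlc1 has no such slope.

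Deviations of the 24 arrays from their group means describe how the enzymes varied within groups. With the marker mean, Pearson's r was 0.864 for Fa2h, 0.83 for Gal3st1 and 0.699 for Ugt8a. It ranged from 0.422 to 0.786 over Cers2 probes and from 0.197 to 0.705 over Elovl1 probes. It was -0.229 for Sptlc1, 0.0694 for Sptlc2, 0.0998 for Degs1, 0.038 for Galc and -0.164 for Sgms1. Between enzymes, r was 0.775 for Ugt8a with Fa2h, 0.769 for Fa2h with Gal3st1 and 0.548 for Ugt8a with Gal3st1. Galc, which also acts on the galactolipid and lies near background, had r of -0.09 with Ugt8a, 0.17 with Fa2h and 0.22 with Gal3st1. Arrays share their normalization, and regions share animals. The array with the lowest number also had the highest marker mean in every group. The deviations are therefore not independent over arrays, and these values are descriptions.

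Of 10229 other genes, those whose deviations were most like Fa2h were Cldn11 (r = 0.898), Cd82 (0.874), Mag (0.873), Mobp (0.866) and Tlcd3a (0.847), over 24 arrays. Cldn11, Mag and Mobp are on the marker list. For Ugt8a the first 5 were 1700123O20Rik (0.851), Htra3 (0.843), Apex1 (0.834), Smim15 (0.824) and Mog (0.818), of which Mog is on the marker list.

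Other cell types were checked with short lists. For precursors and newly formed oligodendrocytes, 1 of 9 kept probes was lower in knockout striatum, Enpp6, at -0.85 (limma adjusted p = 0.00812), and none in cortex or cerebellum. Their median differences were -0.30 in striatum, with 7 of 9 below 0 and 4 at an unadjusted p under 0.05, -0.30 in cortex, with 8 of 9 below 0 and 3 unadjusted, and -0.03 in cerebellum. Of the kept probes, 0 of 12 for astrocytes, 0 of 7 for neurons, 0 of 7 for microglia and 0 of 5 for endothelial cells passed in any of the 3 regions, and at an unadjusted p under 0.05 at most 2 did per list and region. The median differences in striatum were 0.01 for astrocytes, 0.02 for neurons, -0.09 for microglia and -0.11 for endothelial cells. In cortex they were 0.01, 0.08, -0.24 and -0.08, with 6 of 7 microglial probes below 0. In cerebellum they were 0.04, -0.16, 0.11 and -0.04. There 6 of 7 neuronal probes lay below 0, and 2 of 7 neuronal and 2 of 7 microglial probes had an unadjusted p under 0.05.

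The rest of sphingolipid and fatty acid metabolism was read from 5 further lists with 74 kept probes. In striatum 1 of 74 was lower, Gltp, the glycolipid transfer protein. Gltp read 10.82, 10.52, 11.01 and 11.03 in control striatum and 10.52, 9.91, 9.70 and 9.59 in knockout striatum. Its highest knockout array, array 5, reached the lowest control, and the difference was -0.92 (SE 0.17, limma adjusted p = 0.00509). In cortex Gltp differed by -0.61 (adjusted p = 0.104) and in cerebellum by -0.22 (adjusted p = 1).

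In striatum none of 8 probes passed for other enzymes of ceramide synthesis, none of 13 for other fatty acid elongation, none of 12 for lysosomal breakdown and none of 19 for fatty acid supply and breakdown. At an unadjusted p under 0.05 these lists had 0, 1, 0 and 0 probes. Their median differences were -0.02, 0.05, 0.02 and 0.01, near that of all probes. In cortex and cerebellum none of the 74 passed. The gene with the smallest p in the list of ceramide conversion in cortex was Ugcg, the glucosylceramide synthase that takes ceramide to the other branch of glycolipids, at 0.33 (limma adjusted p = 0.0813).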

How the data were processed

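For 25697 probes on each array the deposited raw table gives an unnormalized intensity and a detection p-value, per the file headers. BeadStudio produced them, per the submitters' processing notes, in a version not given in the sources used here. RNA was extracted with TriZol and labelled with biotin, per the labels' protocols. The authors' processed table, also an intensity, served as an alternative after low values were set to a floor of 10, with its normalization not given in the sources used here.

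Intensities were background corrected with nec of limma 3.58.1 in R 4.3.3 (normexp with detection p-values, offset 16), quantile normalized and taken to log2. A probe was kept if detected at p under 0.01 on 4 or more arrays, which held for 14994 and not for 10703. A model of 6 group means was fitted over the 24 arrays (lmFit, then eBayes with trend), with 18 residual and 10.1 prior degrees of freedom. Each probe was tested on its own, two-sided, with Benjamini-Hochberg adjustment over 14994 probes per contrast and a threshold of 0.05. The offset shrinks differences of dim probes. The fit was tested on simulated data.

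Gene symbols came from GEO's platform annotation and positions from RefSeq on GRCm38.p6. The enzymes and lists were chosen with earlier results of these data known. Named genes were all probes of the 10 enzymes, up to 4 called genes per list and comparison or the gene with the smallest p, the 5 genes most like Ugt8a and Fa2h, and Thap1. Alternatives were another background correction, offset, scaling, filter, probe summary, array set, array weights, no trend, and leaving out each array.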

Additional observations from a re-analysis of the deposited data

Results flagged for a closer look

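In groups of 4 arrays, the gap of the highest or lowest array to its nearest neighbour was compared with the group's range. It exceeded Dixon's 95% critical value for 4 samples in 5 of 102 sets of an enzyme probe and a group, and chance alone gives about 1 in 20. Ugt8a in control cortex had array 12 at 10.44 with the others at 10.82 to 10.86, and in knockout cortex array 16 at 9.498 with the others at 10.31 to 10.43. Cers2 probe ILMN_2893992 had knockout cerebellum array 21 at 10.82 with the others at 10.51 to 10.54. The same probe had control striatum array 2 at 10.52 with the others at 10.84 to 10.88. Elovl1 probe ILMN_2723491 had knockout cortex array 13 at 7.4 with the others at 6.991 to 7.055.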

How the results depend on the processing

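No paired analysis was possible because the groups share no replicate numbers and the labels do not link arrays to mice, although 4 mice per genotype gave 12 arrays. Median scaling moved the median of all probes to -0.11 in cerebellum, 0.12 in cortex and 0.07 in striatum for knockout minus control. Under it the striatal count of the enzymes went from 7 to 0, with Ugt8a at -0.86 (adjusted p = 0.0612), Fa2h at -0.83 (0.0965) and Cers2 probe ILMN_2893992 at -0.57 (0.36), and all-probe counts went to 37 in striatum and 33 in cortex. Among controls it left 3 enzyme calls for cerebellum against cortex, 0 for cerebellum against striatum and 2 for cortex against striatum. Fits on the compared regions alone gave 1 enzyme call in striatum, 3 in cortex and 0 for cerebellum against striatum, and 9 and 19 calls over all probes in cerebellum and striatum. With 1 value per gene the enzyme calls in striatum were 3 for the brightest probe and 4 for the mean of probes, over fewer tests, and the mean gave 3 for cerebellum against cortex. Array weights gave 5 enzyme calls and 257 in all in cortex, and no filter gave 42 in all. Ugt8a and Fa2h passed in striatum in 10 and 9 of 11 alternatives. Leaving out 1 array gave 3 to 9 enzyme calls in striatum, 0 to 1 in cortex, 3 to 6 for cerebellum against cortex, 0 to 2 for cerebellum against striatum and 0 to 2 for the striatal against the cerebellar effect. Over all probes it gave 38 to 121 in striatum and 17 to 44 in cortex. Of differences in knockout effect over all probes, cortex against cerebellum gave 1 call, 0 under no background correction, median scaling, no filter, region-only fits and no trend, 2 with the authors' values, and 0 to 1 with 1 array left out. Striatum against cerebellum gave 0 calls, 2 with the authors' values, 1 with either summary per gene, and 0 to 12 with 1 array left out. Cortex against striatum gave 0 calls, 1 with an offset of 50, the authors' values, either summary per gene or no trend, and 0 to 1 with 1 array left out. No call of an enzyme changed its direction in any alternative, and the cause of these changes was not tested. Galc and Sptlc2 lie near background, which limits what can be seen of them.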
